A study of Mus musculus with 12 samples.

Results

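Wild type mouse islets at 12 weeks of age were described from 3 of the 12 arrays of a study of islet amyloid, those whose titles mark them as WT replicates 1, 2 and 3. Islets of Langerhans are the clusters of hormone cells scattered through the pancreas. Per the labels, every mouse of the study was fed standard chow, every group has the strain name B6;129P2-Bace2tm1Bdes/J, and the other groups, used here only for comparison, are hIAPP (a transgene for human islet amyloid polypeptide), BACE2-KO (no BACE2, an aspartyl protease) and hIAPP/BACE2-KO (both), each with 3 arrays at the same age. The labels name neither the promoter that drives the transgene nor the sex of the mice. They leave unsaid whether an array holds islets of a single mouse or a pool, so the spread given is that between arrays, which may be technical. The members are all 17097 genes that have a probe set with a single gene symbol, and for each of them the probe set of the highest WT mean was read. The rule uses the WT level only to choose among the probe sets of a gene.

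An islet holds beta cells, which make insulin, and smaller numbers of alpha, delta and PP cells, which make glucagon, somatostatin and pancreatic polypeptide. These cells store peptides in dense-core granules together with chromogranins and secretogranins, and cut the precursors with dedicated peptidases. Around and between them lie capillaries, stromal and myeloid cells, and islets isolated from the pancreas can carry fragments of the exocrine tissue, whose acinar cells make digestive enzymes.

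The values are log2 levels after robust multi-array averaging. The medians of the WT arrays over all 45141 probe sets were 4.34, 4.34 and 4.31, and the maxima were 13.97, 13.97 and 14.03. Each gene is read by its own probes, so a place in the order is a place by signal and does not measure how many transcripts of a gene there are relative to another gene. Fewer cells of a type and less RNA per cell cannot be told apart in such samples. The labelled tissue was checked on its defining genes: insulin, glucagon, somatostatin and pancreatic polypeptide all stood among the 15 highest of the 17097 genes on average.

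Levels under which signal was not distinguished from background were set with 76 olfactory and vomeronasal receptor genes, which the nose uses. Their WT means had a median of 3.08 and ran from 2.62 to 4.67, the highest being Vmn2r29, and their 95th percentile, 3.65, served as the floor. Above it lay 11799 genes, or 69.0% of all, and 5298 lay at or under it. On every WT array 11235 genes exceeded the floor, 1215 did so on 1 or 2 arrays, and 4647 on none. The median gene stood at 5.56, the 75th percentile at 7.78, the 95th at 10.03 and the 99th at 11.48. Only 69 genes exceeded 12, 873 exceeded 10 and 3821 exceeded 8. The plot of level against rank shows how few genes share the upper part of the scale.

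**Figure D1:**
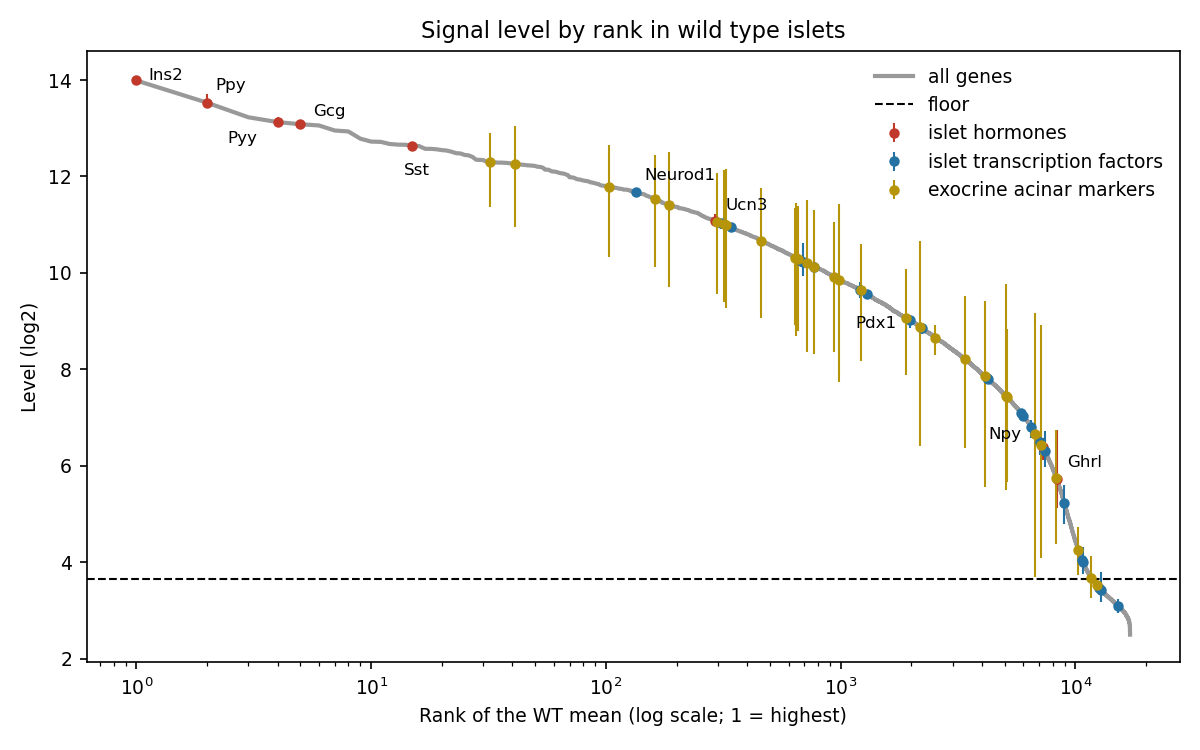
WT mean level (log2) of all 17097 genes against rank on a log axis, with the measured islet hormones, islet transcription factors and exocrine acinar markers as points and bars from the lowest to the highest of the 3 WT arrays. The highest hormones have bars scarcely longer than their points, while 27 of 30 acinar bars span more than 1 log2 unit.

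Hormone genes held the head of the order. Ins2, 1 of the mouse insulin genes, read 13.97, 13.97 and 14.03 on WT replicates 1, 2 and 3 (mean 13.99 ± 0.035, SD, n = 3). It was the highest of all probe sets on each of the 3 arrays. Ppy, pancreatic polypeptide, followed with 13.71, 13.45 and 13.43 and ranked 2 on every array. Pyy, peptide YY, read 13.23, 13.10 and 13.05 and ranked 4. Gcg, which encodes the glucagon precursor, read 13.05, 13.13 and 13.07 and ranked 5. The values of Pyy and Gcg overlapped between arrays, and they exchanged places: Pyy was higher on replicate 1 and Gcg on the other two.

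Sst, somatostatin, read 12.68, 12.64 and 12.59 and ranked 15. Ucn3, urocortin 3, a peptide that marks mature beta cells, read 11.01, 11.01 and 11.22 and ranked 293. Npy, neuropeptide Y, stood much lower at 6.47, 6.58 and 6.12, with rank 7263. Ghrl, ghrelin, the product of rare epsilon cells, was the hormone gene that differed most between the arrays: 6.74 on replicate 1 against 5.31 and 5.12 on the others. All 8 measured hormone genes exceeded the floor, 5 were in the top 1% and 6 in the top 5% of genes. The marker lists of alpha and delta cells stood lower than their hormones. All 10 measured alpha cell markers exceeded the floor, with a median of 6.51 and Gcg the highest. Of 10 delta cell markers 5 exceeded it and 5 did not, with a median of 3.68 and Sst the highest. Ins1 and Iapp are not analysed here, because no probe set with their symbol alone was listed.

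Granule proteins accompanied the hormones. Chga, chromogranin A, read 13.28, 13.18 and 13.22 and ranked 3 on every array. Scg2, secretogranin 2, read 12.78, 12.79 and 12.78, the narrowest range among the 14 measured granule genes (0.01). Chgb, chromogranin B, ranked 12 with 12.61, 12.68 and 12.73. Of the 14, 8 were in the top 1% and 12 in the top 5%. The granule zinc transporter Slc30a8 ranked 96 with 11.96, 11.64 and 11.84. Resp18 and Ttr (transthyretin) ranked 28 and 29. Vgf, a granule peptide precursor, was the exception in its spread, with 7.27, 8.34 and 9.33, a range of 2.06. Dbpht2 was the only granule gene under the floor, at 3.55.

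The peptidases and folding enzymes that serve the precursors were spread more widely along the order. Cpe, carboxypeptidase E, which trims basic residues, read 12.53, 12.65 and 12.54 and ranked 17. Ero1b, an oxidase of the endoplasmic reticulum (ER), ranked 33 with 12.24, 12.27 and 12.36. Pcsk1, a prohormone convertase, read 10.51, 10.71 and 10.96 and ranked 438. Pam, the enzyme that amidates peptides, ranked 1023, and Furin, a convertase of the general secretory pathway, ranked 5749. All 11 measured members exceeded the floor, and none had a range over 1.

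The machinery of protein synthesis filled much of the remaining head. Of the 100 highest genes, 44 carried a symbol of the Rpl or Rps families, the proteins of the cytosolic ribosome. Rpl41 ranked 6 with 13.05, 13.08 and 13.04, and Rps6 ranked 10 with 12.65, 12.74 and 12.78. Eef1a1, the elongation factor that brings aminoacyl-tRNA to the ribosome, ranked 8 with 12.93, 12.95 and 12.92. In a list of 29 measured ribosomal protein genes, 27 were in the top 1%, and the lowest, Rpl27, still read 10.88. Their median SD was 0.042, against 0.057 over the top 1% of genes and 0.117 over all genes. Of the 12 listed translation factors, 7 were in the top 1%, while Eef1a2, the neuron and muscle form of the elongation factor, stood at 7.11.

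Genes for entry into and folding within the ER had a median level of 11.33 over 28 measured members, of which 8 were in the top 1% and 23 in the top 5%. P4hb, a disulphide isomerase, read 11.71, 12.04 and 11.96, and Calr, the chaperone calreticulin, read 11.42, 11.73 and 11.81. Xbp1, a transcription factor of the unfolded protein response, ranked 98 with 11.77, 11.81 and 11.84. Oxidative phosphorylation had a median of 10.53 over 24 measured subunits, 18 of them in the top 5%, led by Ndufa1 of complex I with 11.79, 11.89 and 11.85. Sdhd of complex II was the lowest at 6.27. Lysosome and autophagy genes had a median of 10.36 over 17 members, with the cathepsin gene Ctsl highest (11.85, 11.79 and 11.74) and Tfeb, a regulator of lysosomal genes, lowest (4.05, 4.10 and 4.16).

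Hadh and Acly, both of lipid metabolism, and Mt1 and Itm2b also stood among the 40 highest genes. Hadh, a short-chain 3-hydroxyacyl-CoA dehydrogenase of mitochondria, read 12.59, 12.45 and 12.65 and ranked 19. Acly, ATP citrate lyase, which makes cytosolic acetyl-CoA, read 12.48, 12.56 and 12.57 and ranked 21. Mt1, metallothionein 1, a metal-binding protein, ranked 7 with 12.94, 13.01 and 12.91. A second probe set of Mt1 read only 7.65 on average. Itm2b, a membrane protein cut by furin, ranked 11 with 12.74, 12.70 and 12.71.

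Transcription factors of islet cells ranged over almost the whole order. Of 23 measured, 20 exceeded the floor, 6 were in the top 5% and the median level was 7.79. Neurod1 ranked 134 with 11.66, 11.68 and 11.67. Isl1 read 11.08, 11.12 and 10.91, and Pax6 read 10.99, 10.93 and 10.91, both factors of all islet endocrine cells. Nkx6-1 (10.20, 9.91 and 10.28) and Pdx1 (9.13, 8.85 and 9.09), factors of beta cells, ranked 773 and 1974. Mlxipl, the carbohydrate response factor, differed most between arrays among the 6 highest members, with 10.61, 10.16 and 9.93. Irx1 and Irx2, factors of alpha cells, read 4.80, 5.30 and 5.61, and 5.98, 6.20 and 6.73, so both were lowest on replicate 1 and highest on replicate 3. Pax4, Foxa1 and Hnf4g lay under the floor on average, and Sox9, a factor of duct cells, stood just above it at 4.01.

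Genes of glucose sensing and electrical coupling had a median of 9.09, and all 15 measured members exceeded the floor. G6pc2, the islet glucose-6-phosphatase subunit, ranked 82 with 11.82, 11.93 and 11.97. Slc2a2, the glucose transporter GLUT2, ranked 158 with 11.66, 11.44 and 11.56. Abcc8, the sulphonylurea receptor subunit of the ATP-sensitive potassium channel, ranked 287 with 11.08, 11.07 and 11.13. Its pore-forming partner Kcnj11 stood at 5.98, 6.26 and 6.33 and ranked 7613, a distance between probes that says nothing of the ratio of the subunits. Slc2a1, the glucose transporter GLUT1, had the largest range of the list, with 7.19 on replicate 1 against 8.09 and 8.41.

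Receptors were lower. Their median over 16 genes was 6.45, none was in the top 5%, and 14 exceeded the floor. Glp1r, the receptor for glucagon-like peptide 1, was highest at 9.61, 9.36 and 9.60 and ranked 1333. Igf1r followed with 9.08, 9.41 and 9.62 and Sstr3, a somatostatin receptor, with 8.35, 8.38 and 8.44. Gcgr, the glucagon receptor, read 8.30, 7.75 and 7.41. Insr, the insulin receptor, was among the most even genes, with 7.25, 7.25 and 7.24. Gipr, the receptor for glucose-dependent insulinotropic peptide, read 5.73, 5.77 and 5.64. Npy1r and Drd2 lay under the floor.

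Because the study concerns amyloid and BACE2, the secretase genes were read as a group of 15. Bace2 itself read 11.18, 10.91 and 11.18 in wild type islets and ranked 290. This probe set read 10.94 ± 0.079 (SD, n = 3) in BACE2-KO, so it does not check the knockout label, and another 2 probe sets of Bace2 averaged 8.11 and 7.74 in WT. Bace1, the related beta-secretase, read 7.68, 7.59 and 7.75 and ranked 4535. The substrate genes Aplp1 (11.38, 11.37 and 11.23) and App (10.96, 11.00 and 11.07) ranked 215 and 318. Psenen, a subunit of gamma-secretase, ranked 554, and Mme, neprilysin, which degrades amyloid peptides, lay under the floor at 3.11.

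Marker genes of other cells of the pancreas gave a graded picture. All 18 endothelial markers exceeded the floor, with a median of 6.85. Ramp2, an adrenomedullin receptor component, was the highest at 12.35, 12.47 and 12.20, but it was read by a probe set of the suffix _s_at, which marks probes shared by related transcripts. Emcn (9.35, 9.10 and 8.71) and Kdr (8.03, 7.96 and 8.39), genes of capillary endothelium, were next. Of 15 duct markers 13 exceeded the floor. Krt7 (11.40, 11.40 and 11.44) and Epcam (11.11, 11.11 and 11.08) were high and even, whereas Cftr, the duct chloride channel, was under the floor at 2.90.

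Stellate and fibroblast markers had a median of 5.05 over 18 genes, with Sparc the highest (9.37, 9.83 and 9.54) and Pdgfra the lowest (3.10, 3.33 and 2.61). Myeloid markers had a median of 5.28 over 19, led by the complement gene C1qa (8.79, 8.34 and 8.63). Of 13 lymphocyte markers 4 exceeded the floor: Ccl5 (8.05, 8.15 and 7.95), Cd3e, Cd79a and Cd4. Ms4a1, which encodes the B cell antigen CD20, was at 2.90. Of 4 erythroid markers Hba-a1, an alpha globin gene, read 6.76, 6.80 and 7.95, and Alas2, a haem synthesis gene of red cells, was under the floor.

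Of the lists for tissues outside the pancreas, spermatid, muscle and photoreceptor genes had medians of 3.08, 3.21 and 3.32. Hepatocyte genes had a median of 4.12, above the floor of 3.65. None of 14 spermatid genes exceeded it, and 2 of 13 muscle genes did (Acta1 at 5.39 and Mylpf at 4.62). Of 14 photoreceptor genes 4 did, Gnat2, a cone transducin subunit, reaching 7.90, 8.26 and 8.33. Of 13 hepatocyte genes 7 did, and 3 had a range over 1. Ttr led that list, a gene of alpha cells as well as liver. Genes described as disallowed in beta cells, since their products are kept low there, had a median of 5.42 over 20 genes. Ldha, lactate dehydrogenase A, was the highest of them at 7.58, 8.62 and 8.78.

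Of 23 measured cell cycle genes 19 exceeded the floor, 4 did not and 5 were in the top 25% of all genes. Ccnd2, the cyclin D2 gene, ranked 80 with 11.86, 11.83 and 12.06, and Pcna, the sliding clamp of DNA replication, read 10.30, 10.49 and 10.51. Birc5 and Bub1, genes of dividing cells, were the lowest members at 3.07 and 3.12, and the median was 4.09. The Y-linked genes Eif2s3y (8.68, 8.31 and 8.38), Kdm5d (7.13, 7.34 and 7.20) and Uty (7.16, 7.22 and 7.03) exceeded the floor on each WT array. Xist, transcribed from the inactive X chromosome and named after its values were seen, read 3.73, 3.76 and 3.67, just above the floor on each array. Of 596 X-linked genes 354 (59.4%) exceeded the floor, and 14 of the 170 genes of the top 1% were X-linked.

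**Figure D2:**
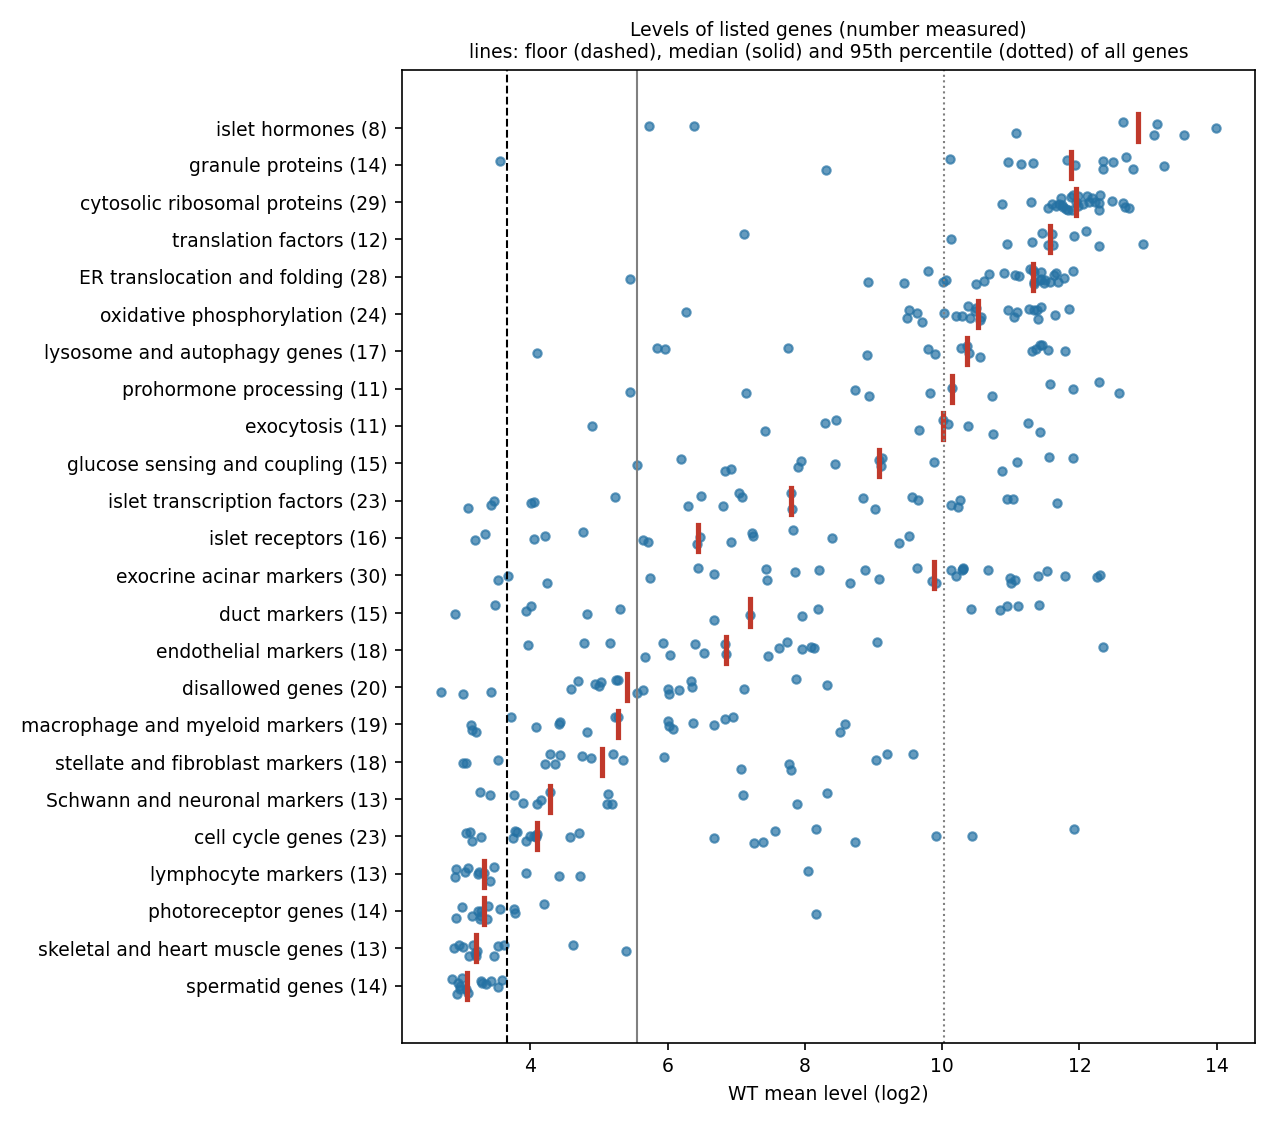
WT mean level (log2) of every measured member of 24 gene lists as points, with each list's median as a red bar and the floor, the median and the 95th percentile of all genes as vertical lines. Hormone, granule, ribosome and ER lists lie mostly to the right of the 95th percentile, and all spermatid genes lie left of the floor.

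The 3 arrays agreed closely in most genes. Between pairs of arrays, Pearson's r over genes was 0.995 for replicates 1 and 2, 0.992 for 1 and 3, and 0.994 for 2 and 3, and Spearman's rho was 0.987, 0.984 and 0.985. These describe genes that share arrays and probes, and genes are not independent replicates. No pair was a copy, since at most 2.19% of probe sets held equal values. The SD over the arrays had a median of 0.117 and a 95th percentile of 0.341, and the median range was 0.22. A range over 0.5 was found for 1805 genes (10.6%), over 1 for 231 (1.35%), over 2 for 60 and over 3 for 16.

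The order was firm at the top in membership but not in exact place. Of the genes in the top 100 of any array, 120 in all, 82 were in the top 100 of every array. Of the 99 neighbouring pairs among the 100 highest, only 4 did not overlap between arrays, and 6 held the same order on all 3. Most neighbours in the order are therefore not told apart by these arrays. The median gene of the top 1% moved over 17.5 places between arrays, against 71 places from the 95th to the 99th percentile, 453 from the median to the 75th percentile, and 1300 at or under the floor. A range over 1 was rare at or under the floor (3 of 5298 genes). Its share was 2.92% from the floor to the median (95 of 3253) and 3.53% in the top 1% (6 of 170). The median SD was 0.172 from the floor to the median and 0.057 in the top 1%. Of the 6 genes, Amy2a5, Ctrb1, Cela3b and Prss2 are acinar enzymes. The others, chosen after their values were seen, are the stress-responsive genes Clu (12.37, 11.93 and 10.88) and Nupr1 (12.26, 11.61 and 10.67). They fell in the same order of arrays as the acinar enzymes.

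**Figure D3:**
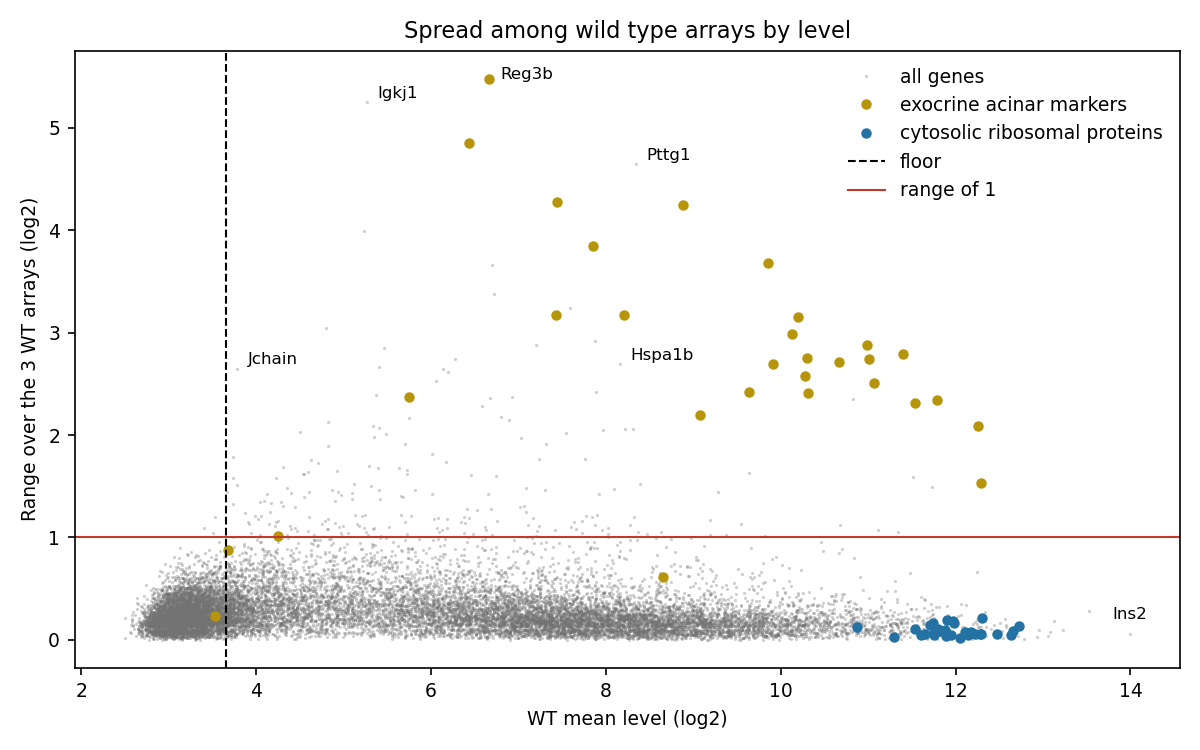
Range over the 3 WT arrays against the WT mean (both log2), for all 17097 genes (grey) with acinar markers and ribosomal proteins coloured. Ribosomal genes lie along the bottom at high level, and 27 of 30 acinar genes lie above a range of 1.

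Replicate 3 stood apart most often. Of the 231 genes with a range over 1, replicate 3 was the distant low array in 88 and the distant high one in 36. Replicate 1 was the distant array on the low side in 33 and on the high side in 32, and replicate 2 was high in 40 and low in 2. Without replicate 3 the number with a range over 1 was 69, without replicate 1 it was 129, and without replicate 2 it was 164. Of the 231, 70 belonged to a list used here and 161 to none.

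Acinar genes were the largest such group. The mean over 30 measured acinar genes was 10.18 on replicate 1, 9.43 on replicate 2 and 7.54 on replicate 3, and 28 of the 30 were highest on replicate 1 and lowest on replicate 3. Ctrb1, chymotrypsinogen B, read 13.04, 12.77 and 10.95 and so moved from rank 7 on replicate 1 to rank 343 on replicate 3. Amy2a5, pancreatic amylase, read 12.90, 12.61 and 11.37. Its rank was 10, 19 and 207. Acinar genes held 8 of the first 100 places on replicate 1, 5 on replicate 2 and 0 on replicate 3.

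Other digestive enzymes followed the same order of arrays with a larger distance. Prss3, a trypsinogen, read 8.93, 6.31 and 4.08. Prss1, another trypsinogen, read 9.77, 7.08 and 5.49. Cela1, elastase 1, read 12.50, 12.00 and 9.71. Reg2 (10.67, 9.56 and 6.42) and Reg3b (9.17, 7.15 and 3.69), genes of the regenerating islet-derived family of secreted lectins, differed by 4.25 and 5.48. The range of Reg3b was the largest of all genes, and on replicate 3 it lay close to the floor. The acinar transcription factors, named for their function after their values were seen, did not share the pattern as a set: Ptf1a read 4.74, 4.28 and 3.73, Bhlha15 read 8.30, 8.77 and 8.91, and Rbpjl was under the floor. In the other groups the acinar mean ran from 8.17 to 9.27 (hIAPP), from 8.72 to 10.19 (BACE2-KO) and from 8.40 to 9.67 (hIAPP/BACE2-KO), so WT replicate 3 was the lowest of the 12 arrays.

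More genes were lowest on replicate 3. Pttg1, securin, a regulator of chromosome separation, read 9.97, 9.74 and 5.32. Lcn2, the iron-siderophore binder lipocalin 2, read 8.69, 8.64 and 5.45. Xlr4b, an X-linked gene, read 6.33, 6.45 and 3.60. Of 19 inflammatory genes 17 were lowest on replicate 3. Among them were Cxcl1 (6.49, 7.11 and 4.58), a chemokine gene for neutrophils, and Ptgs2 (5.59, 6.72 and 4.81), cyclooxygenase 2. In Ptgs2 the distant array was replicate 2, on the high side. Of 15 duct markers 8 were lowest on replicate 3, while 6 were highest on replicate 1 and 6 on replicate 2, with list means of 7.45, 7.48 and 6.92. The largest ranges in that list were those of Tff2 (8.45, 7.59 and 5.57) and Krt19 (7.62, 7.15 and 5.26). The part of exocrine tissue in these values was not tested.

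A few stress and early response genes had large ranges with replicate 3 high, which the other members of their lists shared only in part. Of 12 heat shock genes 7 were highest on replicate 3, with list means of 9.08, 9.09 and 9.34. Of 25 immediate early genes 10 were highest on replicate 3, 10 on replicate 2 and 5 on replicate 1, with list means of 6.27, 6.45 and 6.50. Hspa1b, an inducible HSP70 gene, read 7.19, 7.41 and 9.88. Fos read 7.33, 7.93 and 9.39, and Egr1 read 9.17, 9.05 and 10.68, both immediate early transcription factors. Hspa8, a constitutive HSP70 gene, read 11.95, 12.01 and 11.93. Of 18 interferon-stimulated genes 14 were highest on replicate 3, with list means of 7.73, 7.68 and 8.12, and Ifi27 read 9.38, 9.68 and 10.39. Being highest on replicate 3 was not particular to these lists. It held for 11 of 13 glycolysis genes and 17 of 24 oxidative phosphorylation genes, none of the latter with a range over 1. No share over all genes is given beside these counts.

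Replicate 1 was the low array for glycolysis and hypoxia genes. List means of glycolysis were 8.69, 9.02 and 9.30, and 11 of 13 members were lowest on replicate 1. Pgk1, phosphoglycerate kinase, read 10.59, 11.10 and 11.66, and Pfkl, the liver phosphofructokinase, read 7.18, 7.67 and 8.34. Gapdh, often used as a reference gene, read 11.88, 12.30 and 12.54, a range of 0.66, against 0.19 for Actb (12.26, 12.33 and 12.14). Hypoxia genes averaged 7.08, 7.46 and 7.65. Among them Adm, adrenomedullin, read 4.42, 4.99 and 5.94, and Bnip3 read 10.15, 10.62 and 11.27. Ak4, a mitochondrial adenylate kinase outside these lists and chosen after its values were seen, read 4.67, 6.44 and 7.32.

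ER genes showed a smaller shift of the same kind. Of 28 members 25 were lowest on replicate 1, and the list means were 10.65, 10.90 and 10.88. Sdf2l1, an ER stress target, read 9.56, 10.29 and 10.18. Regulators of the unfolded protein response averaged 8.76, 9.01 and 9.23, with Trib3 at 6.62, 7.23 and 8.08 and the serine synthesis gene Psat1 at 7.26, 8.30 and 8.73. Xbp1 and Atf3 moved by no more than 0.10.

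Replicate 2 was the high array for most stromal markers. Of 18 stellate and fibroblast markers 13 were highest there, with list means of 5.61, 6.09 and 5.55. The collagen gene Col3a1 read 7.67, 8.70 and 6.93, and Dcn, the proteoglycan decorin, read 6.51, 7.82 and 6.86. Igkj1, a joining segment of the immunoglobulin kappa light chain, read 3.44, 8.69 and 3.68, at or near the floor on replicates 1 and 3. Jchain, which links immunoglobulin subunits and was named after its values were seen, read 2.90, 5.55 and 2.90. The lymphocyte list did not follow them: 2 of its 13 members were highest on replicate 2, and its means were 3.84, 3.81 and 3.85. The B cell marker Ms4a1 was under the floor on all 3 arrays (2.71, 2.91 and 3.08). Of 20 disallowed genes 15 were highest on replicate 2.

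**Figure D4:**
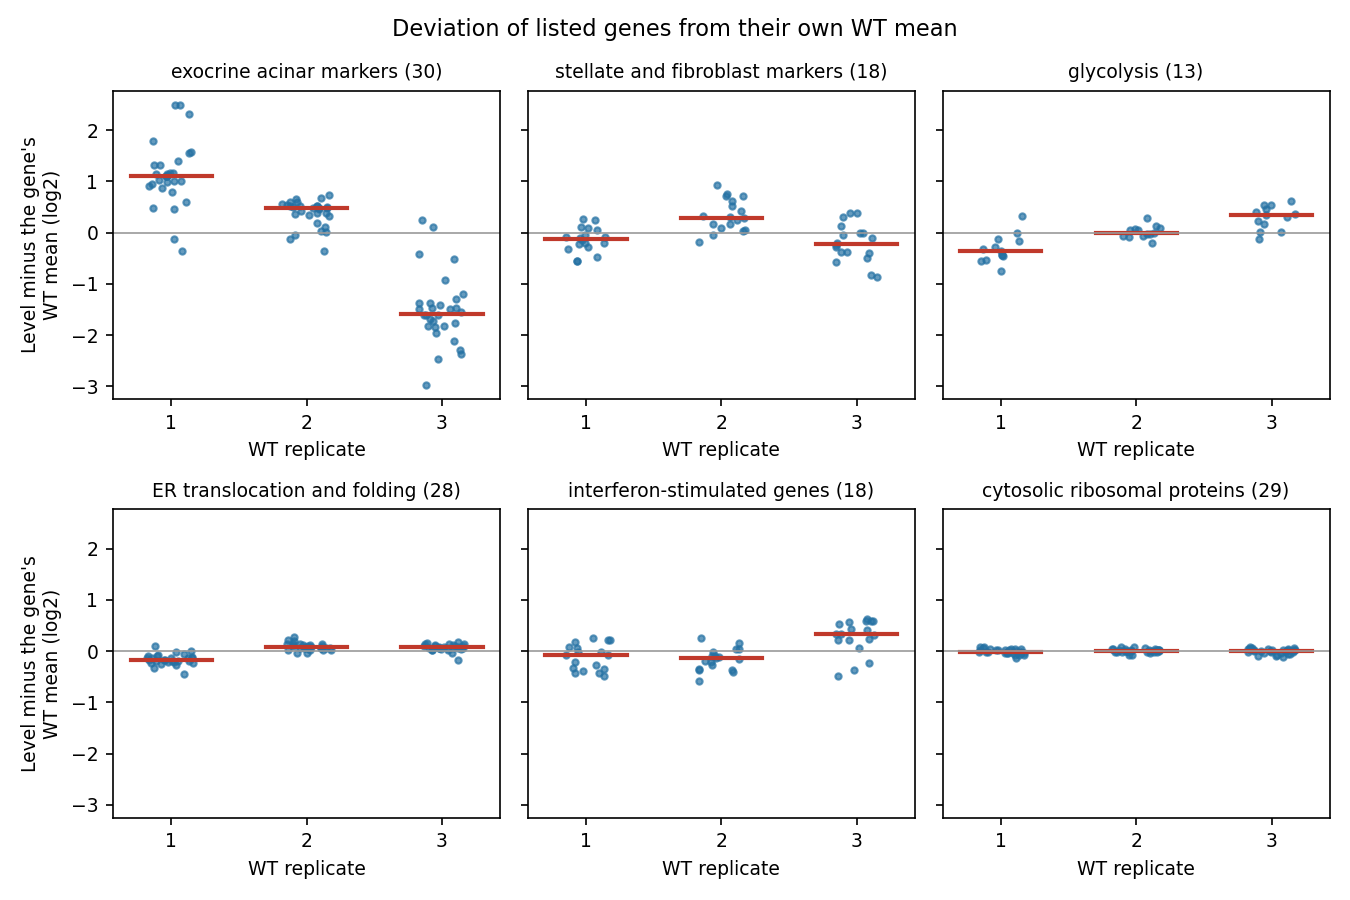
Level of each listed gene minus its own WT mean (log2) on WT replicates 1, 2 and 3, for 6 gene lists with the number measured, with red bars at the medians. Acinar genes are high on replicate 1 and low on replicate 3, stromal genes are high on replicate 2, glycolysis genes are low on replicate 1, and ribosomal genes stay near 0.

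As a set, the genes that varied among wild type arrays also had larger SDs in the other groups, though not every gene did. The 231 genes had a median SD of 0.483 in the hIAPP arrays, against 0.162 over all genes. In BACE2-KO the values were 0.439 against 0.130, and in the arrays with both changes 0.510 against 0.144. In those groups 126, 127 and 140 of them were in the 5% of genes with the largest SD. A range over 1 was found there for 105, 98 and 111 of the 231, and for 459, 343 and 400 of all 17097 genes. Pttg1 was even in those groups, with SDs of 0.143, 0.185 and 0.116. The 12 arrays were normalized together, so these values are not free of each other.

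Promoter sequences were set beside level and spread. RefSeq windows of assembly GRCm38.p6, from 250 bases before the first listed start to 50 after it, were matched by gene for 13514 genes (79.0%). A TATA box places the start site of some tissue-restricted genes, whereas CpG-rich promoters are common in broadly used genes. The stretches below show hormone, ribosomal or elongation factor, and acinar genes side by side, because the classes differ in level, in spread or in both. Each runs 5′ to 3′ on the gene's strand from 40 bases before the start through the first 20 transcribed bases. Capitals mark TATAAA and the first transcribed base.
Ppy, chr11:102101300-102101359, minus strand: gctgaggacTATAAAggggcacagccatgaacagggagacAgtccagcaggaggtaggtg
Pyy, chr11:102107813-102107872, minus strand: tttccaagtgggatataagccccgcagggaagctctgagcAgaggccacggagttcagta
Gcg, chr2:62483634-62483693, minus strand: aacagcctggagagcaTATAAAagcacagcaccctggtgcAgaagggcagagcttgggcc
Sst, chr16:23890825-23890884, minus strand: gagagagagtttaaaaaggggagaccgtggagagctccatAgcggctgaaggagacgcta
Rpl41, chr10:128549149-128549208, minus strand: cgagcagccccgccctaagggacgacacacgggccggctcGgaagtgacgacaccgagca
Rps6, chr4:86857348-86857407, minus strand: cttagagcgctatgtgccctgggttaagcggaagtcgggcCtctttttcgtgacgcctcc
Eef1a1, chr9:78481705-78481764, minus strand: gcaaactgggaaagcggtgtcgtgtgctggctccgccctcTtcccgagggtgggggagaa
Prss1, chr6:41458890-41458949, plus strand: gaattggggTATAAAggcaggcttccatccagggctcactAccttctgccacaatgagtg
Reg2, chr6:78405115-78405174, plus strand: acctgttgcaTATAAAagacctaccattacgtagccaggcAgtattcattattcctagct
Cela1, chr15:100687901-100687960, minus strand: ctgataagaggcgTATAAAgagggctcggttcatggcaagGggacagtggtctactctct
Amy2a5, chr3:113258680-113258739, minus strand: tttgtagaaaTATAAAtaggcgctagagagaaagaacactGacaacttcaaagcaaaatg
Cpa1, chr6:30639178-30639237, plus strand: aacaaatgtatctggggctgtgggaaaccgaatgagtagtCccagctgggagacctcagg
Ctrb1, chr8:111690991-111691050, minus strand: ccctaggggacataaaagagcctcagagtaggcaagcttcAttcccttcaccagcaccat
Klk1, chr7:44225320-44225379, plus strand: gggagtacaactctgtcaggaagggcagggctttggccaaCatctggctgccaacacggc

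TATAAA on the gene's strand, starting 40 to 20 bases before the start, was found in Ppy and Gcg but not in Pyy and Sst, in Prss1, Reg2, Cela1 and Amy2a5 but not in Cpa1, Ctrb1 and Klk1, and not in Rpl41, Rps6 and Eef1a1. The genes shown are examples, and the shares over whole lists and classes carry the comparison. Across the acinar list 8 of 26 windows held it (30.8%), against 2.64% of all matched genes and 2.22% of all 27025 promoters in the table. By level the share was 5.34% at or under the floor, 1.10% from the median to the 75th percentile, 0.814% from the 75th to the 95th, 1.93% from the 95th to the 99th and 4.44% in the top 1% (6 of 135). Within the top 1% it was 0 of 45 among Rpl and Rps genes. TATAAA anywhere in the window on either strand, the measure chosen first, gave 16.4% at or under the floor, 15.6% in the top 1%, 6.51% from the median to the 75th percentile and 10.1% over all matched genes.

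The CpG ratio, the number of CG pairs over that expected from the base counts of a window, had a median of 0.305 at or under the floor, 0.629 from the floor to the median, 0.774 up to the 75th percentile, 0.805 up to the 95th, 0.822 up to the 99th and 0.786 in the top 1%. The acinar windows had a median of 0.177 and the hormone windows 0.290 (7 genes), both below the 0.674 of all genes, although both lists lay high in the order. Ribosomal genes of the top 1% had 0.925.

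Spread was set beside the same features. Genes with a range over 1 had a median CpG ratio of 0.322 and TATAAA upstream in 10.1% of 169 windows. Genes above the floor with a range of at most 0.1 had 0.805 and 1.26% of 1673 windows. The genes with a range over 1 include 27 of the 30 acinar genes, which supplied 8 of the 17 windows with TATAAA upstream. The share without the acinar genes was not computed. Of the 45 Rpl and Rps windows 8 (17.8%) began with a C followed by 4 pyrimidines, as Rps6 above does, against 2.36% of all matched genes. Such a start is typical of messengers for the translation machinery. These matches describe letters in the reference windows and do not show which start the islets used.

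Other motifs were searched in the hormone windows on both strands. TGACGTCA, the full cyclic AMP response element, was present in Sst and in 1.88% of all promoters. CATCTG was present in Gcg and Ucn3 and in 17.2% of all promoters. TAAT, the core of many homeodomain sites, was present in Gcg, Sst and Ucn3 and in 58.3% of all promoters, so a match to it tells little.

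**Figure D5:**
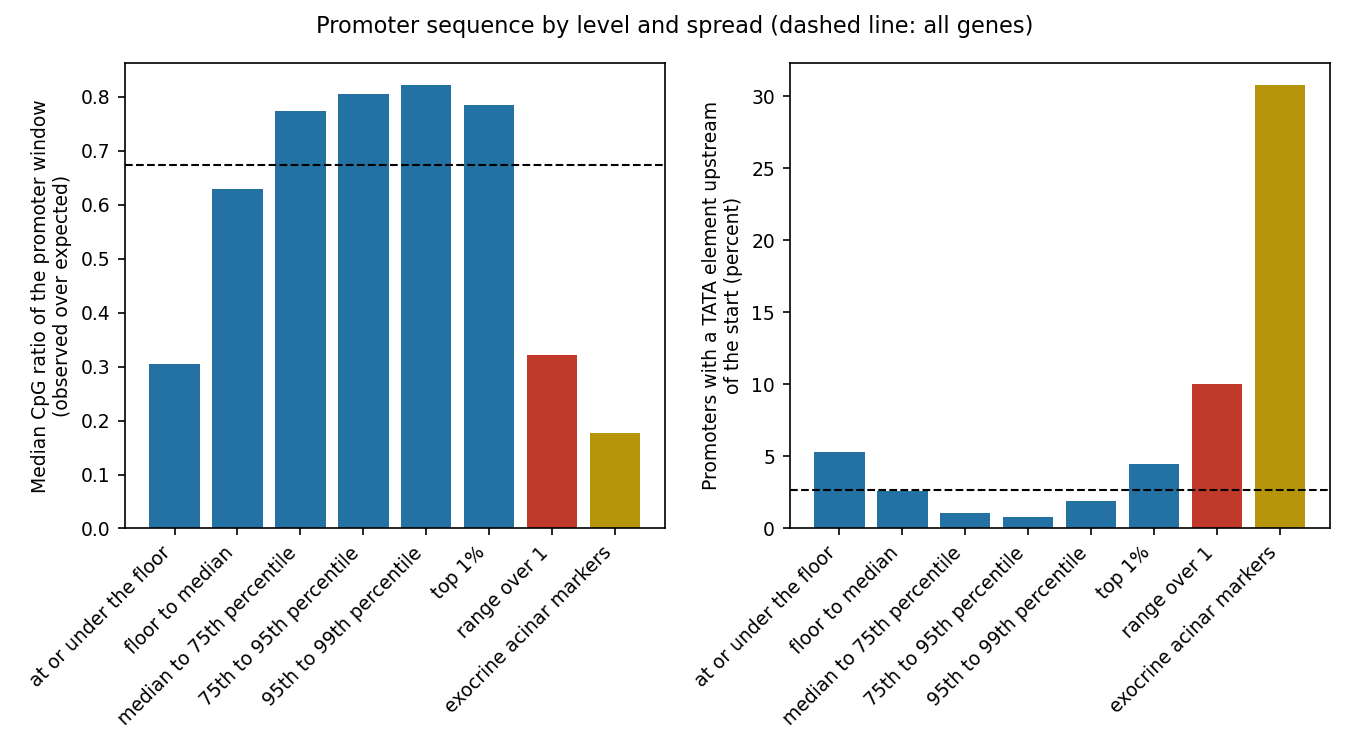
Median CpG ratio (left) and percent of windows with a TATA element upstream of the start (right), for 6 classes of WT level (blue), genes with a range over 1 (red) and acinar markers (yellow), with all genes as a dashed line. The CpG ratio is lowest in the acinar list and under the floor, and the TATA share is highest in the acinar list.

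Finally the baseline was compared with the other genotypes. Of the 100 highest WT genes 94 were also in the 100 highest of hIAPP, 94 of BACE2-KO and 91 of hIAPP/BACE2-KO. In a limma fit to all 12 arrays, WT was set against the mean of the other 3 groups. It called 6 of 12825 genes tested (0.0468%) at a Benjamini-Hochberg adjusted p under 0.05, and 723 (5.64%) had an unadjusted p under 0.05. Leaving out WT replicate 1 or 3 left 0 calls in limma, with 372 and 706 genes at an unadjusted p under 0.05. Leaving out WT replicate 2 left 1 call, a gene outside the 6.

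Rbm45, an RNA-binding protein gene, read 7.65, 7.63 and 7.51 in WT and from 6.03 to 7.39 (median 6.23) on the other 9 arrays. Its difference was 1.14 (SE 0.12, adjusted p = 0.00715). Pnoc, the nociceptin precursor, read 5.08, 5.06 and 5.45 in WT and from 3.75 to 4.92 (median 3.97) elsewhere, a difference of 1.04 (limma adjusted p = 0.0167). Mrap2, a melanocortin receptor accessory protein gene, read 4.08, 4.53 and 4.34 against 3.25 to 4.04 (limma adjusted p = 0.0235). All WT arrays of these 3 genes lay above every other array, and in each the hIAPP arrays were the nearest to WT. Of the 12825 genes tested, 75 had all WT arrays above every other array, and 50 had them all below.

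The 3 genes called lower did not stand apart from every group. Timmdc1, a mitochondrial complex I assembly gene, read 6.77, 6.63 and 6.66 in WT, from 6.31 to 6.68 in hIAPP and from 7.59 to 8.30 in the groups without BACE2. Tex15, a germ cell gene, read 3.47, 3.49 and 3.09 in WT and 3.26 to 3.81 in hIAPP, against 4.87 to 6.36 without BACE2. Sema5a, a semaphorin gene, read 3.50, 3.62 and 3.43 in WT and from 7.47 to 8.61 in hIAPP, with 3.55 to 4.79 in the groups without BACE2. Their limma adjusted p values were 0.0167, 0.0235 and 0.0331. Ghrl, with a difference of 1.90, missed the threshold (limma adjusted p = 0.0575).

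The choice of probe set bears on a gene's place as well as the spread between arrays. Of the 7180 genes with several single-symbol probe sets, the next set lay a median of 0.82 lower, beside the median range of 0.22 between arrays over all genes. It lay more than 1 lower in 3182 (44.3%) and more than 3 lower in 957. Of 6028 such genes above the floor, 2154 (35.7%) had another probe set at or under it. Rps6 had sets at 12.72, 8.35 and 3.05, and Cd164, a sialomucin gene named after its values were seen, had sets at 12.20 and 3.40. Among the 100 highest genes 20 were read by probe sets of the suffix _x_at and 11 by _s_at, which can bind related transcripts, Ins2 among the first, whereas 7.64% of all genes had either suffix. Levels of gene families with near-identical members, such as ribosomal proteins, trypsinogens and insulins, are uncertain for that reason.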

How the data were processed

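The deposited values are log2 levels, 1 per probe set and array, which the authors made with RMA in affy, as the submitters' processing notes say without versions. Nothing was normalized again. Of 45141 probe sets, 28898 had 1 gene symbol in the platform annotation. Means, SDs, ranges and ranks were computed with pandas 2.3.3 in Python 3.11.15. WT was compared with the mean of the other groups with limma 3.58.1 in R 4.3.3 (a mean per group, eBayes with a variance trend) over genes whose mean of 12 arrays exceeded the 25th percentile, each by its highest probe set over 12 arrays. The steps were tested on simulated data. Arrays hold no read depth, and their number limits the precision.

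The gene lists (751 genes, 645 measured) and the members were chosen with earlier results of these data known. Named genes are the 40 highest, the 25 with the largest range, members of the hormone, granule, processing, transcription factor, glucose sensing, receptor and secretase lists, up to 9 extremes of each other list, and the called genes. Where a gene was named after its values were seen, the text says so. Symbols were read by Entrez identifier, which changed 0 of them. Protein features were not used here. Alternatives covered the floor, the probe set rule, further normalization, filters, the model and each array left out.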

Additional observations from a re-analysis of the deposited data

How the results depend on the processing

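The number of genes above the floor kept within a factor of 1.5 under every alternative tried (10650 to 12815). The number in the top 100 of every array was 84 to 91 without 1 array, 85 with mean probe sets and 82 as reported. Fewer arrays leave fewer lists to share, so the count without 1 array could hardly fall and does not measure stability. The median SD (0.117) was 0.105 with the mean of a gene's probe sets and 0.0919 to 0.0990 without 1 array. The 231 genes with a range over 1 became 69 to 164 without 1 array and 184 with mean probe sets. Without the acinar list, an alternative chosen after seeing the data, they were 204. The range of a probe set cannot grow, and its SD tends to be lower, over fewer arrays. The lower values without 1 array therefore do not measure stability. The share of top promoters with TATAAA anywhere (15.6%) was 9.77% for the top 5% and 4.44% for the upstream position, which was chosen after seeing the data, as were the pyrimidine start and the motifs CACCTG and TTTCCC. Their CpG ratio (0.786) was 0.808 for the top 5% and 0.764 to 0.786 without 1 array. Medians of gene lists moved by more than their spread in 28 of 43 lists with mean probe sets, the largest shift being 15.2 percentile points for exocytosis.

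The 6 genes called in WT against the other groups were 2 with a filter at the 50th percentile, 10 with median centring, 13 with array weights, 12 at an adjusted p under 0.1, and 0 to 7 without 1 array. With the replicate block, 10 were called, 5 of them among the 6. Same-numbered arrays of different groups correlated from -0.129 to 0.372 in their deviations, 10 of 18 pairs over 0.1. These values do not settle whether the numbers pair the arrays, and the main fit did not pair them.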

Other observations

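Many strong signals could not be named. Of the 100 highest probe sets on the WT arrays, 67 carried 1 gene symbol and 2 carried several, while the annotation did not list 31. Of 15588 unlisted probe sets other than controls, 8099 (52.0%) exceeded the floor and 130 had a range over 1.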
